A study of Saccharomyces cerevisiae with 16 samples.

Results

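Wild-type cultures of budding yeast, *Saccharomyces cerevisiae*, grown with either of 2 alkali salts, NaCl or LiCl, were compared gene by gene and intron by intron. Of the 16 RNA sequencing libraries in the series, 4 belong to these cultures: each culture gave 1 library of polyadenylated RNA (polyA) and 1 library of total RNA depleted of ribosomal RNA (ribodepleted). Both cultures were labelled wild type and grew in YPD, a rich glucose medium, for 24 h with a fresh inoculation every 8 h. NaCl was supplied at 0.4 M, a single concentration. LiCl was labelled IC50, the point of a concentration gradient closest to 50% growth inhibition, and its molar value is not given in the sources used here. The NaCl culture was thus not matched to the LiCl culture for growth inhibition, and the kind of salt cannot be told apart from the degree of inhibition. A culture without any stressor was not analysed here, so "higher in NaCl" and "lower in LiCl" name the same difference. Wild-type cultures in 20% glucose, in 0.32 µg/ml myriocin (an inhibitor of sphingolipid synthesis) and in 0.85 µM fenpropimorph (an inhibitor of sterol synthesis) provided the only other reference levels. The paper describes its 20% glucose culture as late exponential and its LiCl culture as mid-exponential, so levels in glucose may also differ by growth phase.

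The values were counts of reads on coding sequences (CDS) and on introns. The NaCl libraries held 49473030 (polyA) and 36377857 (ribodepleted) CDS reads, and the LiCl libraries 48277015 and 53234402. Levels are given as CPM, read counts divided by library size after TMM scaling, and differences as log2(NaCl) minus log2(LiCl). Levels given without a library type are from the polyA libraries. Each culture was sequenced once per library type, so there is no replicate error and no p-value: the 95% intervals in parentheses are exact intervals for the split of reads between both libraries and cover counting error only. The library types are different readouts of a culture and not replicates. A gene was called when it differed at least 2-fold in the same direction in both of them. Of 6697 coding sequences, 6602 passed a minimum mean of 10 reads in both library types. Read composition differed between the ribodepleted libraries: reading frames annotated as retrotransposon Gag-Pol took 44.6% of CDS reads in LiCl and 22.4% in NaCl, against 3.86% and 4.20% in the polyA libraries. Scaling to total counts in place of TMM moved the median of all genes from −0.02 to −0.43 in polyA and from −0.03 to 0.34 in ribodepleted RNA, so differences much under 1 on the log2 scale have no firm sign. Auxotrophic markers gave the same pattern in both cultures, with 0 to 1 reads on *LEU2*, *URA3* and *MET17* and 1120 to 10347 reads on *HIS3* and *LYS2*.

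As background, yeast copes with high sodium or lithium by extruding the ions through P-type ATPases of the Ena family, by accumulating glycerol through the high-osmolarity glycerol (HOG) kinase pathway, and by calcineurin signalling. Lithium is toxic at far lower concentrations than sodium and inhibits phosphoglucomutase and the phosphatase Met22. Growth state is commonly read from a pair of opposed programmes: ribosomal protein (RP) and ribosome biogenesis genes are highly transcribed in fast-growing cells, whereas genes of the general stress response, driven by the transcription factors Msn2 and Msn4 through the stress response element, are transcribed when growth is restricted.

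The transcriptomes of the 2 salt cultures differed widely. At least 2-fold higher in NaCl in both library types were 1054 genes (16% of those tested), and 1213 genes were at least 2-fold lower (18.4%). These shares are the background for the count of each gene list below. The difference was lopsided at the extremes. At least 8-fold higher in NaCl were 41 genes against 277 lower, at least 16-fold 5 against 143, and at least 64-fold 0 against 40. The genes higher in NaCl took 59.4% of all polyA CDS reads in NaCl and 19.0% in LiCl, and 39.7% and 5.38% in ribodepleted RNA. The genes lower in NaCl took 4.13% of polyA CDS reads in NaCl and 36.9% in LiCl. Because whole cultures were sequenced, a level that is lower in every cell cannot be told apart from one that is high in fewer cells. Across the 6602 genes the changes in the 2 library types had a Pearson correlation of 0.95, a description across genes that share both cultures.

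**Figure D1:**
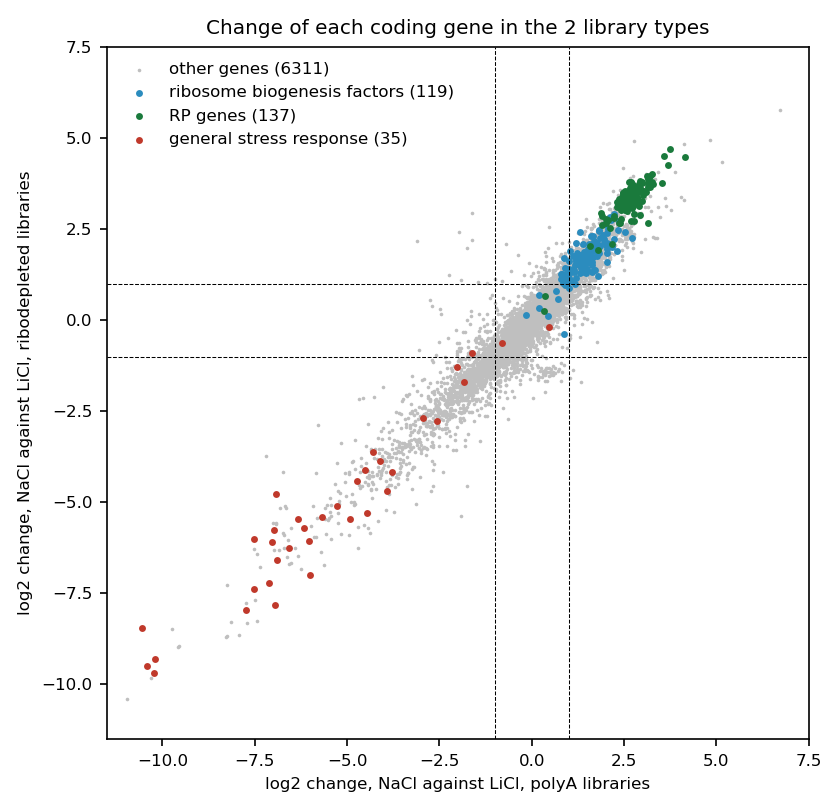
Log2 change of each of the 6602 coding genes, NaCl against LiCl, in polyA (x axis) and ribodepleted (y axis) libraries, 1 point per gene; dashed lines mark 2-fold. RP genes (green) and ribosome biogenesis factors (blue) lie to the upper right, general stress response genes (red) to the lower left, down to −10.56 in polyA for *SIP18*.

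The salt cultures were then placed against the other wild-type cultures. Among the genes higher in NaCl, the LiCl level alone lay outside the range of the other 4 cultures in both library types for 336 genes, the NaCl level alone for 122, both for 556 and neither for 40. Among the genes lower in NaCl these counts were 441, 136, 587 and 49. With the requirement that a level lie outside that range by at least 2-fold, LiCl alone stood apart for 358 higher and 448 lower genes, NaCl alone for 0 higher and 69 lower genes, and neither for 694 and 638. Uncalled genes were not counted with that margin, so these counts have no background share and are a description only. Without a margin, LiCl alone stood apart in 31.9% of the higher, 36.4% of the lower and 32.0% of the uncalled genes, and NaCl alone in 11.6%, 11.2% and 17.1%. Levels in all 5 cultures are therefore given for the main genes.

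Genes of the general stress response showed the widest differences. Of 35 listed members, 32 were lower in NaCl and 0 higher, against 18.4% and 16% of all genes, with a median change of −6.00 in polyA and −5.45 in ribodepleted RNA (medians of all genes −0.02 and −0.03). The list was chosen with earlier results of these data known. The small heat shock protein gene *HSP26* (chrII:382030-382674, R64) had 6.73 CPM in NaCl and 9322 CPM in LiCl in polyA RNA, and 4.90 and 3552 CPM in ribodepleted RNA. Its level was 408, 75.2 and 201 CPM in glucose, myriocin and fenpropimorph, so that NaCl was the lowest of the 5 cultures and LiCl the highest. The change was −10.43 (−10.61 to −10.26) in polyA and −9.50 (−9.71 to −9.30) in ribodepleted RNA. *DDR2*, a stress-induced gene of unknown molecular role, had 58 reads in NaCl and 91591 in LiCl in polyA RNA, a change of −10.24 (−10.65 to −9.88). *GRE1*, a hydrophilin induced by osmotic stress, was 1182-fold lower in NaCl in polyA and 627-fold lower in ribodepleted RNA. In the other 3 cultures *GRE1* was at 5.34 to 6.89 CPM, against 2.61 in NaCl and 3098 in LiCl. *SIP18*, a further hydrophilin, had 48 reads in NaCl against 95111 in LiCl in polyA RNA. In ribodepleted RNA *SIP18* had 2 reads in NaCl against 987, a change of −8.45 with a counting interval of −11.82 to −6.92.

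*HSP12*, which encodes a membrane-associated stress protein, was the gene with the most reads in the LiCl polyA library at 1.54% of CDS reads. It stood at 119.5 CPM in NaCl and 14516 CPM in LiCl, a change of −6.92 (−6.97 to −6.88) in polyA and −4.78 (−4.82 to −4.75) in ribodepleted RNA. In fenpropimorph *HSP12* was lower still, at 37.5 CPM. The cytosolic catalase gene *CTT1* had 16.2 CPM in NaCl, 2013 in LiCl and 41.7 to 47.4 in the other cultures. Members that were not called were *GRE2* (−0.80 and −0.63), *SOD1* (−1.61 and −0.89) and *MSN2*, which encodes a regulator of the programme itself (0.46 and −0.20). The 35 genes took 7.23% of polyA CDS reads in LiCl and 0.18% in NaCl.

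The stress response element, read here as AGGGG on either strand within 300 bases before the start codon, was present in 25 of the 35 promoters (71.4%). Over all 6594 promoters with a full window the share was 22.1%, in promoters of genes lower in NaCl 41.7%, in those of genes not called 18.8%, and 137 of the 1054 promoters of genes higher in NaCl held it. Among the 143 genes at least 16-fold lower in NaCl it was 62.2%, and 23.1% held at least 2 copies against 3.46% of all promoters. The copies nearest to the start codon are shown for genes with large differences, in 5′ to 3′ direction of the gene with the motif in capitals. All 4 run on the opposite strand, so that the complement CCCCT is what is read.
*DDR2* (chrXV:231916-231940, minus strand, 3 copies in the window): tcttttctcaCCCCTtatgggacat
*HSP12* (chrVI:107056-107080, plus strand, 2 copies): tccggtcgtcCCCCTcttgatctga
*CTT1* (chrVII:654491-654515, plus strand, 1 copy): tttatcgtatCCCCTactgctacac
*COX26* (chrIV:690784-690808, plus strand, 2 copies): caagcggaaaCCCCTctatcagtag
No AGGGG lay in the windows of *HSP26*, *GRE1* and *SPG4*, which had changes of similar size. A match is a description of the letters and not evidence of binding.

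Outside the stress list, the genes lowest in NaCl included several linked to stationary phase and respiration. *SPG4*, a gene needed for survival in stationary phase, had 7 reads in NaCl and 19582 in LiCl in polyA RNA, and 3 against 5327 in ribodepleted RNA. The changes were −10.97 (−12.39 to −10.03) and −10.40 (−12.90 to −9.07). *COX26*, a small subunit associated with cytochrome *c* oxidase, changed by −10.32 and −9.83, with 0.38 CPM in NaCl, 500.2 in LiCl and 0.12 to 7.38 in the other cultures. *EGO4* and *FMP16* changed by −9.59 and −9.75 in polyA and by −8.96 and −8.47 in ribodepleted RNA. *PIR3*, a cell wall glycoprotein, was at 7.14 CPM in NaCl, 1728 in LiCl and 149 in fenpropimorph. The enolase-related genes *ERR1*, *ERR2* and *ERR3* changed by −8.13 to −8.27 in polyA RNA, but they are near-identical copies whose reads the counting could not assign with certainty. Levels in NaCl of all these genes rest on under 300 reads, and their size is less certain than their direction.

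Chaperones and storage carbohydrate genes followed. Of 25 chaperone genes controlled by heat shock factor, 11 were lower and 1 higher in NaCl, with medians of −0.81 and −0.87. Both values lay below 0 in 17 of them and above 0 in 7. Among the latter, *SSA2* (0.89 and 1.75), *HSC82* (0.34 and 0.87) and *SSE1* (0.31 and 0.78) were not called. The small heat shock protein *HSP42* changed by −7.50 and −7.68, the inducible Hsp70 genes *SSA4* and *SSA3* by −5.25 and −4.78 in polyA, and the inducible Hsp90 gene *HSP82* by −4.94 and −4.18. *HSP82* was at 65.7 CPM in NaCl, 2011 in LiCl and 419 to 857 in the other cultures, so that NaCl was the lowest culture. Of 18 trehalose and glycogen genes, 16 were lower and 0 higher, with medians of −2.74 and −3.64. Glycogen phosphorylase *GPH1* changed by −6.65 and −5.16, glycogen synthase *GSY2* by −4.48 and −5.33, branching enzyme *GLC3* by −4.42 and −5.30, and trehalose-6-phosphate synthase *TPS1* by −2.86 and −3.51. For *GSY2* the myriocin and fenpropimorph cultures (289.8 and 356 CPM) lay between LiCl (669 CPM) and NaCl (30.1 CPM), and the glucose culture (35.7 CPM) was next to NaCl.

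Genes of ribosome production lay on the opposite side. All 137 RP genes had higher values in NaCl in both library types and 135 of them were called, against 16% of all genes. Their median change was 2.69 (95% order-statistic interval 2.62 to 2.74) in polyA and 3.38 (3.32 to 3.48) in ribodepleted RNA. They took 19.8% of polyA CDS reads in NaCl and 4.06% in LiCl, and 9.04% and 0.645% of ribodepleted reads. Members without a call were *RPL15B* (0.32 and 0.25) and *RPS9A* (0.36 and 0.68), and these 2 values lie within the shift that scaling to total counts makes in polyA RNA. The largest changes were those of *RPS22B* (chrXII:856442-857317), of *RPL9A* and of *RPL18B*. *RPL9A*, a large-subunit protein gene, had 1922 CPM in NaCl, 145 in LiCl, 446 in glucose, 1481 in myriocin and 836 in fenpropimorph in polyA RNA. Its change was 3.73 (3.70 to 3.77) in polyA and 4.69 (4.61 to 4.77) in ribodepleted RNA. *RPS21A* stood at 668 CPM in NaCl and 58.4 in LiCl. *RPL18B* stood at 451 CPM in NaCl and 34.7 in LiCl, close to its 42.7 CPM in high glucose. *RPS22B* likewise had 377 CPM in NaCl, 21.2 in LiCl and 43.7 in glucose, with 290.04 in myriocin and 226 in fenpropimorph. Many RP genes have a near-identical paralogue, so single members are less certain than the group. *ASC1*, which encodes a ribosome-associated protein and hosts an intron with a snoRNA, changed by 3.58 and 4.52. Outside these groups, the cell wall mannoprotein gene *SRL1* (4.05 and 3.37) and the cell wall protein gene *TOS6* (3.42 and 4.08) were among the 12 highest outside the marker and mating lists, although the reading frame *YOR248W* overlaps *SRL1*.

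Of 119 ribosome biogenesis factors, 96 were higher and 0 lower, with medians of 1.44 and 1.67. Scaling to total counts left 62 of them called. Examples were *MRT4* (2.52 and 2.41) and *TSR2* (2.33 and 2.46), ribosome assembly factors, and *GAR1* (2.37 and 2.71) and *NOP1* (2.12 and 2.82), components of the snoRNP particles that modify ribosomal RNA. In 58 of the 119 the NaCl culture alone lay outside the range of the other cultures, against 5 for LiCl alone. Over all genes higher in NaCl these shares were 11.6% and 31.9%, and over uncalled genes 17.1% and 32.0%. With a 2-fold margin, NaCl alone stood apart for 0 of the 1054 genes higher in NaCl. *NOP1* was at 1277 CPM in NaCl, 294 in LiCl, 670.5 in glucose, 1022 in myriocin and 457 in fenpropimorph. NaCl was thus the highest of the 5 cultures for *NOP1* and LiCl the lowest. Of 17 genes for subunits and initiation factors of RNA polymerase I, which transcribes ribosomal RNA, 8 were higher and 0 lower. Among the higher were the subunit genes *RPA12* (2.66 and 2.34), *RPA43* (2.30 and 2.45), *RPA49* (2.16 and 2.05) and that of the largest subunit, *RPA190* (1.49 and 2.56). Of 40 translation factors, 33 were higher (23 with total counts) and 1 lower. Elongation factor genes *TEF4* (3.35 and 3.87), *EFB1* (2.59 and 3.11) and *EFT1* (2.08 and 3.21) were higher, and *TEF1*, the gene with the most reads in the NaCl polyA library at 2.24%, changed by 1.60 and 2.54. The exception was *HEF3*, a paralogue of the elongation factor 3 gene, at −3.86 and −4.76.

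The PAC element, read as GATGAG on either strand, was present in 107 of the 119 biogenesis promoters (89.9%), in 18.9% of all promoters, in 29.8% of those of genes higher in NaCl and in 14.0% of those of genes lower in NaCl. In RP promoters its share was 11.7%. Examples are printed in the direction of the gene, with the motif in capitals.
*MRT4* (chrXI:426116-426141, plus strand): agaaaaatgcGATGAGcttttgaaaa
*GAR1* (chrVIII:283408-283433, minus strand): aatttttcgaGATGAGgaaaggaaga
*RPA49* (chrXIV:182723-182748, minus strand): tttttattgcGATGAGctgaaatttt
*RPA43* (chrXV:960349-960374, minus strand): aaaagattccGATGAGggtgtatggg
The windows of *TSR2* and *RPA12* held no GATGAG. Also scanned were TGACTC (Gcn4) and CACGTG (Cbf1 and Pho4), whose shares differed little between the called groups. TGACTC was in 7.59% of promoters of genes higher in NaCl, 9.61% of those lower and 7.99% of all promoters. For CACGTG the shares were 3.80%, 3.56% and 3.44%.

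Of 24 regulators of RP gene transcription, 1 was higher and 7 lower in NaCl, against 16% and 18.4% of all genes. The protein kinase A subunit gene *TPK2* (−2.67 and −3.14) and the growth-inhibiting kinase gene *YAK1* (−2.32 and −3.09) were lower. The activator genes *IFH1* (0.39 and −0.02) and *SFP1* (0.27 and −0.32) were not called.

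**Figure D2:**
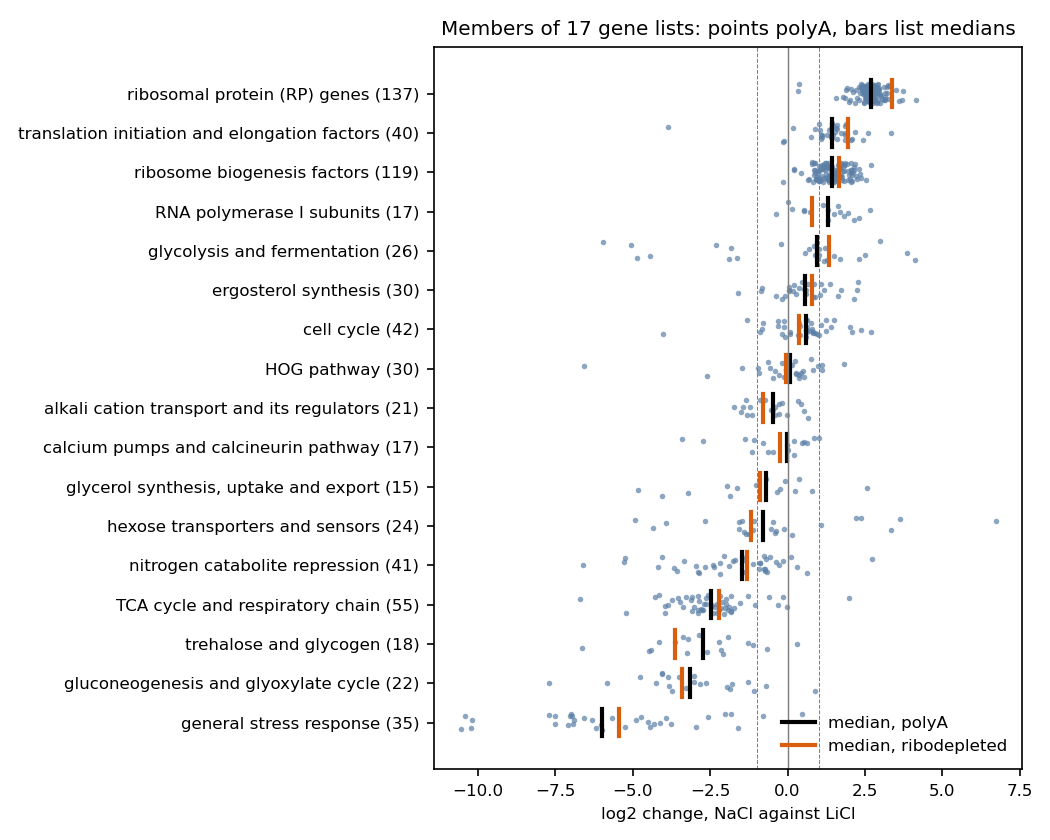
Log2 change in polyA libraries, NaCl against LiCl, of each tested member (points) of 17 gene lists, with the list median in polyA (black bar) and in ribodepleted RNA (orange bar) and the number of members in parentheses. Medians run from 2.69 and 3.38 for RP genes to −6.00 and −5.45 for the general stress response, with the HOG pathway near 0 at 0.08 and −0.05.

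Carbon metabolism was split between genes. Of 24 hexose transporter and sensor genes, 5 were higher and 12 lower in NaCl (8 with total counts). *HXT1* (chrVIII:290913-292625), a low-affinity glucose transporter, had the largest excess in NaCl of all named genes. It had 66523 polyA reads in NaCl and 817 in LiCl, and 29835 and 612 ribodepleted reads. This is 1684 CPM against 15.9, with 601 in glucose, 376 in myriocin and 449 in fenpropimorph, and a change of 6.72 (6.62 to 6.83) in polyA and 5.78 (5.67 to 5.90) in ribodepleted RNA. The low-affinity transporter *HXT3* changed by 3.64 and 3.13, although its highest level was in fenpropimorph (4401 CPM). Lower in NaCl were *HXT5* (−4.94 and −5.89), a transporter of slow-growing cells, and the high-affinity transporter *HXT7* (−4.36 and −4.64), whose reads are shared with the near-identical *HXT6*. *HXT7* was at 1039 CPM in LiCl, 633 in myriocin, 259 in fenpropimorph, 50.6 in NaCl and 26.8 in glucose.

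Gluconeogenesis and glyoxylate cycle genes were lower in 19 of 22 cases and higher in 0, with medians of −3.16 and −3.41. *PCK1*, the enzyme of the committed step of gluconeogenesis, had 9.04 CPM in NaCl, 1911 in LiCl and 8.48 to 30.7 in the other cultures, a change of −7.72 (−7.88 to −7.57). The carnitine carrier gene *CRC1* (−5.84 and −5.94) and malate synthase *MLS1* (−4.77 and −4.10) were lower. Of 55 nuclear genes of the TCA cycle and respiratory chain, 50 were lower and 1 higher, with medians of −2.48 and −2.22. The largest changes were those of the external NADH dehydrogenase *NDE2* (−6.71 and −6.26), the peroxisomal citrate synthase *CIT2* (−5.21 and −5.06) and the succinate dehydrogenase subunit *SDH2* (−4.30 and −4.50). Mitochondrial citrate synthase *CIT1* was at 73.6 CPM in NaCl, 1139 in LiCl and 113 to 365 in the other cultures.

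Among 26 genes of glycolysis and fermentation, 11 were higher (7 with total counts) and 7 lower, and isoenzymes of a reaction could differ in opposite directions. The enolase gene *ENO2* changed by 4.12 and 4.84 while *ENO1* changed by −1.82 and −1.43. Hexokinase *HXK2* changed by 3.87 and 4.08 while *HXK1* changed by −4.45 and −4.15, and glucokinase *GLK1* by −5.97 and −5.66. Pyruvate decarboxylase *PDC6* changed by −5.07 and −4.19. *TDH3* (1.19 and 2.01) was higher, and *ADH1* (0.87 and 1.31) was not called.

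The share of each partner was therefore computed per base of coding sequence for 20 pairs of isoenzymes or paralogues, chosen and ordered after the values had been seen, so the shares are a description and a count over the pairs carries no weight. *HXK1* made up 1.84% of *HXK1* and *HXK2* reads per base in NaCl and 85.7% in LiCl (polyA). *ENO1* made up 7.61% and 83.5% of its pair. The stress-associated pentose phosphate enzymes *TKL2* (1.36% and 81.4%), *NQM1* (1.32% and 80.6%), *GND2* (0.94% and 88.2%) and *SOL4* (1.29% and 87.6%) were the minor partners of *TKL1*, *TAL1*, *GND1* and *SOL3* in NaCl and the major partners in LiCl. The cytochrome *c* isoform gene *CYC7* made up 1.92% in NaCl and 61.0% in LiCl, and *HSP82* 3.92% and 61.3% of its Hsp90 pair. The library types differed for *ADH2*, at 4.29% and 3.89% in polyA but 5.89% and 7.73% in ribodepleted RNA, and *COX5B*, at 28.8% and 41.4% in polyA but 28.9% and 27.7% in ribodepleted RNA. Reads of similar partners may have been assigned to either gene.

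**Figure D3:**
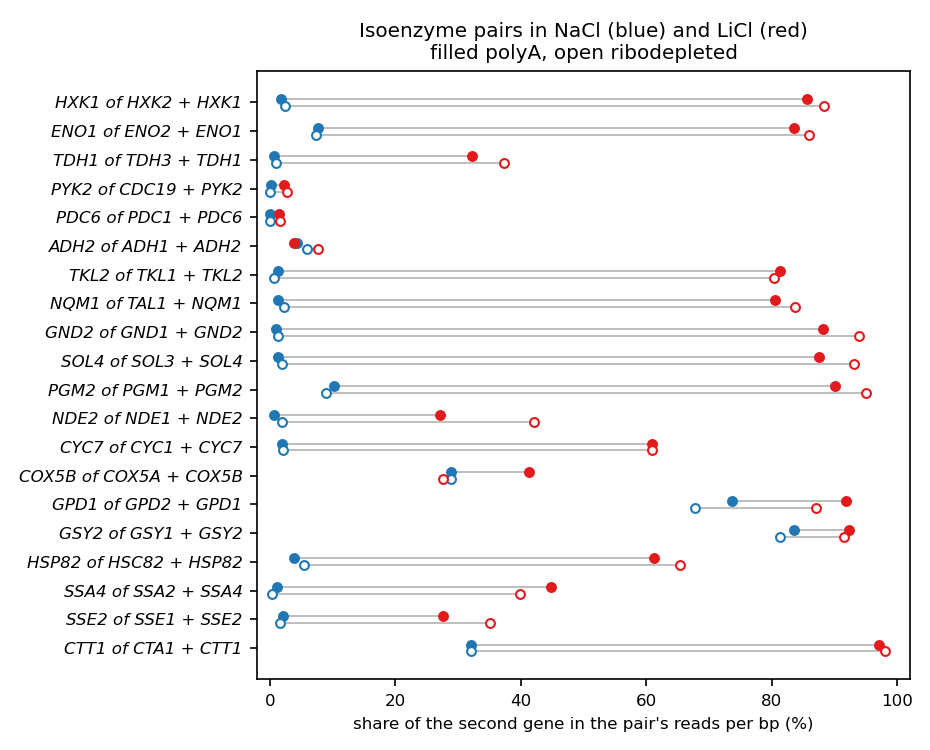
Share of the second gene in the reads per base pair of 20 pairs (x axis, percent), in NaCl (blue) and LiCl (red), polyA filled and ribodepleted open. For *HXK1* the share was 1.84% in NaCl and 85.7% in LiCl in polyA RNA, and for *GND2* it was 0.94% and 88.2%.

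Genes of ion homeostasis are the most direct counterpart of the treatments. Of 21 genes of alkali cation transport and its regulation, 0 were higher and 6 lower in NaCl (4 with total counts), against 16% and 18.4% of all genes, with medians of −0.47 and −0.78. *ENA1* (chrIV:535192-538467), the sodium and lithium extrusion ATPase, had 18290 polyA reads in NaCl and 79267 in LiCl. Its level was 463 CPM in NaCl, 1546 in LiCl, 421 in myriocin, 346 in fenpropimorph and 261 in glucose. The change was −1.74 (−1.76 to −1.72) in polyA and −1.67 (−1.69 to −1.64) in ribodepleted RNA, and in ribodepleted RNA NaCl (318 CPM) was within the range of the cultures without added alkali salt (268 to 324 CPM). The tandem copies *ENA2* (−1.44 and −1.30) and *ENA5* (−1.33 and −1.28) are too similar to *ENA1* to be read as separate results. *VHS3*, an inhibitor of the phosphatase Ppz1, changed by −1.51 and −1.80, its target's paralogue *PPZ2* by −1.23 and −1.66, and *HAL1*, a gene that confers halotolerance, by −1.34 and −1.76. Not called were the sodium-proton antiporter *NHA1* (0.44 and 0.50), the endosomal exchanger *NHX1* (−0.40 and −0.69) and the potassium transporter *TRK1* (0.33 and 0.33).

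Among calcineurin pathway genes and calcium pumps, 5 of 17 were lower and 1 higher. NaCl alone lay outside the range of the others in 8 genes and LiCl alone in 5. Among all higher, lower and uncalled genes, NaCl alone did so in 11.2% to 17.1% and LiCl alone in 31.9% to 36.4%. *CMK2*, a calmodulin-dependent kinase and calcineurin target, was at 33.1 CPM in NaCl against 350.1 in LiCl, 551 in glucose, 563 in myriocin and 773 in fenpropimorph. LiCl was thus below the 3 other cultures and NaCl lower again, a change of −3.40 (−3.49 to −3.32) from LiCl to NaCl. *RCN2*, a regulator of calcineurin, followed with 32.0 CPM in NaCl, 211 in LiCl and 147 to 306 in the others. The vacuolar calcium pump *PMC1* changed by −1.15 and −2.28, *CMK1* by −1.36 and −2.42 and the calcineurin inhibitor *RCN1* by −0.02 and −0.25.

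Glycerol genes were mixed. Of 15, 1 was higher and 7 were lower in NaCl. *GPD1*, the rate-limiting enzyme of glycerol synthesis, was at 498 CPM in NaCl, 1547 in LiCl and 284 to 388 in the other cultures, a change of −1.64 (−1.66 to −1.61) in polyA and −1.59 in ribodepleted RNA. The glycerol-proton symporter gene *STL1* had 7.42 CPM in NaCl and 124 in LiCl, with 8.62 to 8.93 in glucose, myriocin and fenpropimorph. *STL1* in NaCl was therefore no higher than in any of the other cultures, and its change was −4.06 (−4.24 to −3.89) and −3.26 (−3.46 to −3.08). The glycerol dehydrogenase gene *GCY1* (−4.83 and −5.09) and mitochondrial glycerol-3-phosphate dehydrogenase *GUT2* (−3.23 and −4.08) were lower. The gene higher in NaCl was *GPP1*, a glycerol-3-phosphatase (2.56 and 2.63), whose osmotically induced paralogue *GPP2* was not called (0.24 and −0.13). Of 30 HOG pathway genes, 2 were higher (1 with total counts) and 3 lower. The kinase gene *HOG1* itself changed by 0.49 and 0.41, the osmosensor gene *SHO1* by 1.81 and 1.84, the transcription factor gene *CIN5* by −2.60 and −2.40, and *RCK1*, a kinase of the oxidative stress response, by −6.57 and −6.68. *RCK1* had 311.8 CPM in LiCl and 1.53 to 5.99 in the 4 other cultures.

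**Figure D4:**
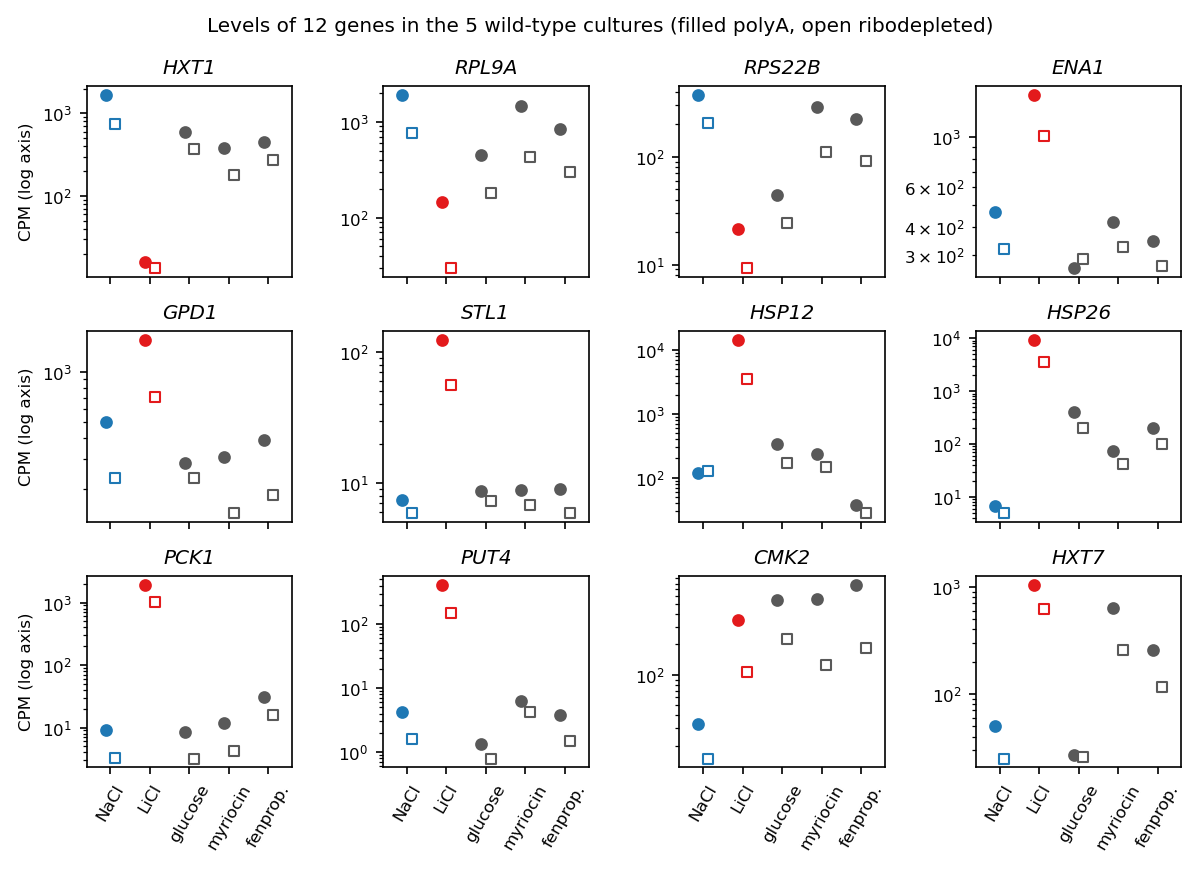
Level of 12 genes in CPM (log axis) in the 5 wild-type cultures, polyA filled and ribodepleted open, 1 library per point, genes picked after their values were seen to show different patterns. LiCl (red) is far from the 4 other cultures for *HXT1*, *STL1*, *PCK1* and *PUT4*, NaCl (blue) is far from the rest for *CMK2*, and for *HXT7* the glucose and NaCl cultures are both low.

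Of 9 genes for enzymes inhibited by lithium or related kinases, 3 were higher and 4 lower. The major phosphoglucomutase gene *PGM2* had 19.9 CPM in NaCl, 237 in LiCl, 233 in myriocin, 311 in fenpropimorph and 22.7 in glucose, so that NaCl and glucose were the low cultures in polyA RNA. In ribodepleted RNA NaCl alone was low, at 11.4 CPM against 89.1 to 204. *PGM2* changed by −3.58 and −4.16, while its paralogue *PGM1* changed by 2.75 and 3.42. *MET22*, the 3′-phosphoadenosine phosphatase, changed by 1.54 (1.46 to 1.62) and 1.31 (1.17 to 1.46). The inositol monophosphatase genes *INM1* (1.44 and 1.17) and *INM2* (−1.22 and −1.21) differed in opposite directions. Among 33 genes of sulfate assimilation and methionine metabolism, 7 were higher (4 with total counts) and 10 lower. Cystathionine beta-lyase *STR3* (−3.58 and −4.21) and the methionine permease gene *MUP3* (−3.52 and −3.38) were lower, *SAM4*, an S-adenosylmethionine-homocysteine methyltransferase (2.997 and 3.24), was higher, and ATP sulfurylase *MET3* (0.60 and 0.84) was not called.

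Nitrogen and amino acid genes also differed. Of 41 tested genes under nitrogen catabolite repression, 24 were lower and 1 higher, with medians of −1.46 and −1.31. The proline permease gene *PUT4* was at 4.15 CPM in NaCl, 408 in LiCl and 1.36 to 6.23 in the others, a change of −6.62 (−6.85 to −6.40). Proline oxidase *PUT1* (−5.24 and −5.30), glutamate dehydrogenase *GDH3* (−5.28 and −3.93) and the ammonium permease *MEP2* (−2.96 and −2.61) were lower. The GATA element (GATAAG, either strand) was present in 53.7% of these promoters against 14.6% of all promoters and 18.2% of promoters of genes lower in NaCl. Of 17 genes of the Ehrlich pathway and aldehyde oxidation, 9 were lower and 3 higher, led by the aldehyde dehydrogenase genes *ALD3* (−7.02 and −6.09), *ALD2* (−5.05 and −4.46) and *ALD4* (−4.73 and −4.41). Amino acid biosynthesis genes outside methionine were higher in 17 of 54 (12 with total counts) and lower in 3. *ARO4* (3.07 and 3.35), of aromatic amino acid synthesis, was higher, glycine decarboxylase subunits *GCV1* (−3.88 and −3.25) and *GCV2* (−3.26 and −2.30) were lower, and the activator gene *GCN4* stayed at 0.19 and 0.00. In purine metabolism, 8 of 24 genes were higher (5 with total counts) and 4 lower. *IMD2*, an inosine monophosphate dehydrogenase, had 198 CPM in NaCl, 6.96 in LiCl and 35.4 to 42.7 in the other cultures, so that both salts stood apart in opposite directions (change 4.83, 4.68 to 4.99).

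In lipid, metal and wall genes, several lists had shares near the 16% higher and 18.4% lower of all genes. Of 30 ergosterol genes, 8 were higher (5 with total counts) and 1 lower. *ERG6* (2.25 and 2.46) and *ERG2* (2.13 and 2.41) were higher and *ERG11* (0.48 and 0.89) was not called, all being at their highest in fenpropimorph. Of 33 sphingolipid genes, 5 were higher (3 with total counts) and 8 lower. The fatty acid elongases *ELO3* (3.23 in polyA) and *ELO2* (2.86 and 3.21) were higher, and the ceramidase *YDC1* (−3.04 and −3.02) and the regulator *ORM2* (−1.93 and −1.59) lower. Of 25 phosphate regulon genes, 7 were higher and 3 lower. The polyphosphate polymerase subunit *VTC3* was at 804 CPM in NaCl, 151 in LiCl and 153 to 414 in the others, so that NaCl was the highest, while *PHM7* changed by −5.63 and −6.71 and the acid phosphatase *PHO5* was not called (0.34 and 0.53). Of 31 iron uptake genes, 5 were higher and 3 lower, among them the permease *FTR1* (1.79 and 1.86), the oxidase *FET3* (1.67 and 2.13) and the scaffold *ISU1* (−2.34 and −2.29). The metallothionein genes *CUP1-1* (−2.87 and −2.61) and *CRS5* (−4.61 and −4.01) were lower, and 4 of the 18 copper and zinc genes were lower and 1, *ZRT1* (1.01 and 1.06), higher. Of 23 inositol and phospholipid genes, 5 were higher and 5 lower (3 with total counts), with the phospholipid methyltransferase *OPI3* at −3.42 and −2.70 and the fatty acid synthase *FAS1* at 2.05 and 2.42. In the cell wall list, 5 of 47 were higher and 12 lower, with the crosslinking enzyme *UTR2* at 3.42 and 3.10, and the kinase of the integrity pathway, *SLT2*, at −0.15 and −0.28.

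Of 42 cell cycle genes, 8 were higher (5 with total counts) and 2 lower, the first close to the 16% of all genes. The G1 cyclin *CLN2* (2.69 and 2.58), the ribonucleotide reductase subunit *RNR1* (2.38 and 2.48) and the mitotic cyclin *CLB2* (2.09 and 1.88) were higher, and the damage-inducible subunit *RNR3* (−4.03 and −3.86) was lower. Of 11 histone genes, 3 were higher (2 with total counts) and 0 lower. Among 24 genes for drug pumps, their regulators and related proteins, 0 were higher and 9 lower. The lower genes included the weak acid pump *PDR12* (−2.91 and −2.72), while *PDR5* was not called (0.15 and 0.69). Of 35 oxidative stress genes, 3 were higher and 14 lower, with the peroxidases *GPX1* (−6.32 and −5.46) and *TSA2* (−4.96 and −4.23) lower and thioredoxin *TRX2* (−1.32 and −0.76) not called. Of 19 seripauperin genes, near-identical subtelomeric copies, 0 were higher and 4 lower. Spliceosome protein genes showed little difference, with 4 of 75 higher and 1 lower. *SNU13* (2.93 and 2.84), a protein shared by the spliceosome and snoRNPs, *SUB2* (1.80 and 2.24) and *PRP43* (1.73 and 1.85), a helicase shared with ribosome assembly, were the 3 largest, and the core component *PRP8* was at 0.32 and 0.65. Of 48 genes of RNA decay and intron turnover, 8 were higher (4 with total counts) and 2 lower (1 with total counts), and the lariat debranching enzyme gene *DBR1* was at 0.30 and 0.11.

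Intron retention was then compared, defined as intron reads per base over CDS reads per base of the same gene with 0.5 added to each count, as a percentage. Splicing removes introns in 2 steps that use the 5′ splice site, a branch point adenosine and the 3′ splice site. Few yeast genes have an intron, but most duplicated RP genes do. Of 297 introns of nuclear genes with a coding count, 286 passed the minimum in both library types. Retention was at least 2-fold lower in NaCl for 161 of them (56.3%) and higher for 2 (0.699%). The median change was −1.72 (−1.94 to −1.43) in polyA and −1.60 (−1.85 to −1.20) in ribodepleted RNA. Median retention was 5.36% in NaCl and 17.2% in LiCl in polyA RNA, with 2.98% in glucose, 7.04% in myriocin and 5.45% in fenpropimorph, so that the NaCl culture was among the others and the LiCl culture above them all. In ribodepleted RNA the values were 10.1% in NaCl, 30.8% in LiCl and 7.19% to 15.8% in the others.

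RP introns made up most of the calls. Of 102 RP introns, 99 were lower in NaCl and 0 higher, and of 184 other introns 62 were lower and 2 higher. Median changes were −2.71 and −2.84 for RP introns and −1.10 and −0.61 for the others. Retention is a ratio, and its intron and CDS parts are given apart. Intron reads themselves, scaled to the library, had a median change of −0.04 (−0.16 to 0.16) in polyA and 0.56 (0.39 to 0.67) in ribodepleted RNA over the RP introns, while CDS reads of the same genes changed by a median of 2.65 and 3.37. Over the other introns, intron reads changed by −1.06 and −0.57 and CDS reads by −0.01 and 0.02. For RP genes the CDS reads differed and the median intron reads were close to equal in polyA RNA, whereas for the other genes the intron reads differed and the CDS reads did not on the median. Divided by library size in place of CDS reads, 55 introns were at least 2-fold lower in NaCl (19.2%) and 8 higher.

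**Figure D5:**
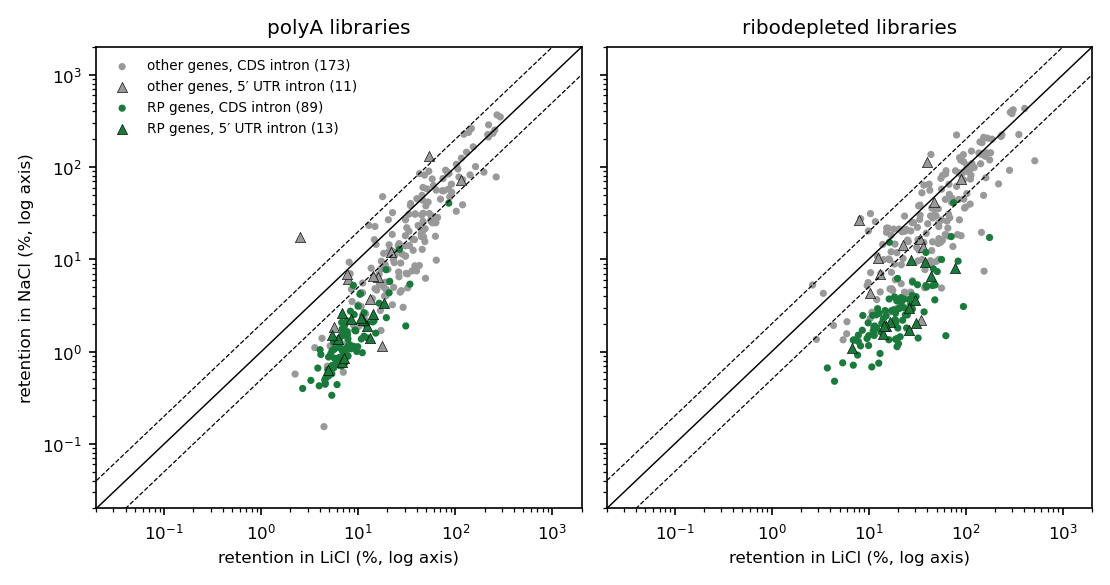
Retention of 286 introns in LiCl (x axis) and NaCl (y axis), percent on log axes, for polyA and ribodepleted libraries; circles are CDS introns, triangles 5′ UTR introns, green RP genes, and lines mark equality and 2-fold. RP introns cluster below the lower 2-fold line, at medians of 1.19% in NaCl and 7.45% in LiCl in polyA RNA, and the triangle far above the lines in polyA is *MCR1* with 17.3% and 2.50%.

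The introns with the widest differences, and the 5′ UTR intron of *RPS22B*, are shown with their splice signals because their 5′ splice sites differ in how closely they match the usual yeast letters GTATGT. All of those printed hold the usual branch point TACTAAC. Capitals mark the first 6 bases in the first line of each pair and the TACTAAC in the second.
*RPS0A* CDS intron (chrVII:920665-921119), 5′ end: GTATGTtatactcattcc
*RPS0A* CDS intron, branch point: atcttttaTACTAACtttttctt
*SUN4* 5′ UTR intron (chrXIV:501157-501502), 5′ end: GTATGTttaatttaatga
*SUN4* 5′ UTR intron, branch point: attttattTACTAACccatccca
*RPL22A* CDS intron (chrXII:263206-263594), 5′ end: GTATGAtactttaaaagg
*RPL22A* CDS intron, branch point: tcgtttttTACTAACattactgt
*RPL16B* CDS intron (chrXIV:494525-494973), 5′ end: GTACGTaaaaaatttcta
*RPL16B* CDS intron, branch point: ttagcattTACTAACtttatttt
*MCR1* 5′ UTR intron (chrXI:166400-166487), 5′ end: GTACGTatataagaatgc
*MCR1* 5′ UTR intron, branch point: tccctcaaTACTAACgttttgaa
*USV1* 5′ UTR intron (chrXVI:115219-115293), 5′ end: GTATGTaaagaaaaaatc
*USV1* 5′ UTR intron, branch point: gcttttttTACTAACacataaat
*RPS22B* 5′ UTR intron (chrXII:855878-856434), 5′ end: GTATGTggacgaggtgtg
*RPS22B* 5′ UTR intron, branch point: aagtataaTACTAACgtttcaaa

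Introns with similar changes differed at the 5′ splice site. *RPL22A* begins with GTATGA and *RPL16B* with GTACGT, while *RPS0A* and *SUN4* have GTATGT. *RPL7A*, whose 2 introns were counted jointly and are not printed, has GTATGT in both and an exact TACTAAC in the second only. Over the 295 introns or intron segments of the tested set, 73.6% begin with GTATGT and 83.7% hold an exact TACTAAC. The shares were 80.0% and 93.3% among those lower in NaCl and 65.6% and 71.1% among those not called. Outside RP genes they were 82.8% and 92.2% of introns lower in NaCl, and 66.4% and 71.2% of those not called. The distance from the branch point adenosine to the intron end ranged from 13 bases in *MCR1* to 55 in *RPL22A* among the introns printed.

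*RPS0A*, which encodes a small-subunit protein, had 156 intron and 77633 CDS reads in NaCl and 453 and 14189 in LiCl in polyA RNA. Its retention was 0.34% and 5.33%, a change of −3.99 (−4.25 to −3.72), with 0.27% to 0.41% in the other cultures, and −4.11 in ribodepleted RNA. *SUN4*, a cell wall protein gene with a 5′ UTR intron, was the only gene outside the RP set among the 5 largest falls so ranked. Without the minimum of 50 intron reads, changes outside RP genes reached −4.85 in polyA and −4.37 in ribodepleted RNA. Its retention was 1.16% in NaCl, 17.6% in LiCl and 1.68% to 2.07% in the other cultures, from 63 and 389 intron reads, a change of −3.93 (−4.31 to −3.54). *RPL22A* retention was 1.90% in NaCl, 30.9% in LiCl, 7.37% in glucose, and 1.19% and 1.01% in myriocin and fenpropimorph. An uncharacterised reading frame, *YLR062C*, overlaps *RPL22A*, and reads of the pair cannot be told apart without a stated strand setting. *RPL16B* (0.44% and 4.56%) and *RPL7A*, whose introns hold an annotated noncoding RNA (0.45% and 4.57%), completed the 5.

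Higher retention in NaCl was called for *MCR1* and *USV1* alone. *MCR1*, the mitochondrial NADH-cytochrome *b*5 reductase, had retention of 17.3% in NaCl and 2.50% in LiCl, with at most 11.7% in the others, a change of 2.79 (2.34 to 3.25) in polyA and 1.77 (1.32 to 2.22) in ribodepleted RNA. Its intron reads were 57 in NaCl and 125 in LiCl while its CDS reads were 3426 and 51822. *USV1*, a transcription factor gene, had 131% in NaCl and 52.9% in LiCl from 23 and 371 intron reads, and 281 and 11003 CDS reads. Relative to library size, the intron reads of both were lower in NaCl, with changes of −0.75 and −3.61 in polyA RNA. Introns of the subtelomeric frames *YJL225C* and *YIL177C* (0.76 each in polyA) and of *YRF1-3* (0.40) came next and were under 2-fold. These belong to repeated Y′ element sequence whose copies share reads.

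*RPS22B* carries both a 5′ UTR and a CDS intron, and the library types ranked them differently. For the CDS intron, which holds a snoRNA, retention was 7.72% in NaCl and 19.3% in LiCl in polyA RNA but 17.2% and 176% in ribodepleted RNA, changes of −1.32 (−1.53 to −1.11) and −3.35 (−3.53 to −3.17). For the 5′ UTR intron the changes were −2.45 and −1.48 (−1.75 to −1.20). Intron reads relative to library size were higher in NaCl in every case, by 2.83 and 1.13 for the CDS intron and by 1.71 and 3.003 for the 5′ UTR intron. The 8 tested introns that hold an annotated noncoding RNA were all lower in NaCl, against 56.3% of all introns and 99 of 102 RP introns. For the *RPS22B* CDS intron, the paper ascribes the many copies presumably to the small RNA encoded in it. The part of such RNAs in these values was not tested.

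Mating-type genes were compared last. Cells of mating type **a** transcribe *STE2*, the receptor for alpha factor, which had 43460 polyA reads in NaCl and 22613 in LiCl. Of 20 mating genes, 7 were higher and 4 lower in NaCl. Of the genes used by alpha cells, *MF(ALPHA)1*, which encodes alpha factor, had 10 reads in NaCl and 1656 in LiCl, or 0.25 and 32.3 CPM, against 0.21 to 0.40 CPM in the other cultures. The receptor gene *STE3* had 52 and 433 reads and followed another order, with 1.32 CPM in NaCl, 8.44 in LiCl, 2.13 in glucose, 13.9 in myriocin and 13.1 in fenpropimorph. *MF(ALPHA)2* had 381 and 424 reads and *SAG1* 1453 and 2642. The endonuclease gene *HO* was at 138 CPM in NaCl, 3.86 in LiCl and 28.6 to 73.3 in the others. Whether alpha cells were present in either culture was not tested. Meiosis and sporulation genes were lower in 6 of 36 (4 with total counts) and higher in 1, near or below the 18.4% and 16% of all genes, led by the spore wall gene *SPS100* (−7.43 and −8.25), while the regulator *IME1* was not called (0.35 and −0.32).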

How the data were processed

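RNA was sequenced from whole yeast cultures. Per the labels and the study's methods, RNA was extracted with RiboPure, libraries were made with Illumina TruSeq Stranded kits from polyadenylated RNA or after QIAseq FastSelect removal of ribosomal RNA, and paired reads of 100 bp were obtained. The deposited values were raw read counts, which the authors made by trimming with cutadapt, aligning to the R64 genome with HISAT2 (TopHat is also named) and counting with featureCounts over coding sequences, CDS introns and 5′ UTR introns. The study lists versions of both aligners and of featureCounts without saying which made these files, and the settings for strand, read pairs and multiply mapping reads are not given in the sources used here, so reads of overlapping or antisense genes and of near-identical copies are uncertain. Several introns of 1 gene were counted jointly.

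Depth ranged from 29557254 to 53234402 CDS reads over the 16 libraries. Counts were scaled with TMM (edgeR 4.0.16, R 4.3.3) over the 8 libraries of a type, and no model was fitted, since each culture had 1 library per type. Genes with a mean of at least 10 reads were used, 0.5 reads were added before log2, and 95% intervals were exact binomial (Python 3.11.15, scipy 1.17.1, numpy 2.4.6, pandas 2.3.3). Figures were drawn with matplotlib 3.10.9. The steps were tested on simulated data. A gene or intron was called at 2-fold or more in the same direction in both types.

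Genes were named by rule: the 12 highest and 12 lowest with a symbol and a mean of at least 50 reads, outside the strain marker and mating lists, up to 3 members and the key genes of each of 39 lists, and, for introns, the 5 of widest change in each direction and those of *RPS22B*. The introns of widest change needed a mean of at least 50 intron reads over the NaCl and LiCl libraries in each type. The members and lists were chosen with earlier results of these data known. The isoenzyme pairs and the genes in the plot of levels in 5 cultures were chosen after their values were seen, and 4 listed symbols (*DUR1,2*, *ARG5,6*, *ADE5,7* and *AAD6*) were not matched. Gene names came from a RefSeq table of the same assembly, which matched 6014 of 6697 IDs. Promoter windows of 300 bases before the start codon (6594 read) and intron sequences came from the R64 reference. Introns of 63 genes without a CDS count and 12 mitochondrial introns were left out, leaving 297. Alternatives were total counts, DESeq2 1.42.0 size factors, TMM over the salt libraries alone or without RP genes, a pseudocount of 1, other filters, 1 library type alone, a 4-fold threshold, and other denominators and subsets for introns. Some genes that the rule names are not reported here. Leaving out introns that hold a noncoding RNA was chosen after seeing the data.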

Additional observations from a re-analysis of the deposited data

Results flagged for a closer look

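In 12 reading frames the NaCl against LiCl change was at least 2-fold in both library types but in opposite directions, with 3 higher in polyA and lower in ribodepleted RNA and 9 the reverse. With 1 library per culture and type, these differences between library types were not tested. YLR154C-G (−2.24 in polyA and 1.25 in ribodepleted RNA), YLR154W-B (−1.98 and 2.43) and TAR1 (−1.63 and 2.19) overlap the 25S ribosomal RNA and YLR154W-F (−3.12 and 2.16) the 18S ribosomal RNA, the target of ribodepletion. YLR162W (−1.76 and 1.99) lies 104 bp and RRT15 (−1.61 and 2.94) 937 bp from the nearest ribosomal RNA gene. The part of ribodepletion in these values was not tested. Away from ribosomal RNA genes were YCL021W-A (1.35 and −1.68), YDL159W-A (−1.91 and 1.10), MOR1 (1.11 and −1.365), YER097W (−1.45 and 1.06) and YNL067W-A (−1.21 and 1.01), the last with 72 reads over the 4 libraries. YLR012C (1.03 and −1.59) rested on 18 reads over the 4 libraries.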

How the results depend on the processing

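No paired analysis was possible because each culture had 1 library per type, no replicate numbers were shared and no test was run, and for the same reason no replicate could be left out. Counting intervals cover the reads and not the spread between cultures. The calls of 1054 higher and 1213 lower genes became 332 and 540 at a 4-fold threshold. With total counts they were 735 and 1000, of which 715 and 961 were shared with the calls above and 0 changed direction, and the RP medians became 2.27 in polyA and 3.76 in ribodepleted RNA. Under the other scalings, filters and pseudocount the counts ran from 1039 to 1103 higher and from 1166 to 1239 lower, and either library type alone gave more calls in each direction. *TDH3*, *ZRT1*, *STE2*, *SOL3*, *ENA2*, *ENA5*, *INM2*, *HMLALPHA2* and the linker histone gene *HHO1* were no longer called with total counts. Of 362 gene values, 0 changed sign after a call. Only called genes could count there, and a 2-fold call exceeds every shift that scaling made, so under scaling this 0 was fixed in advance. The same holds for the 0 calls that changed direction with total counts. Medians near 0, such as those of the spliceosome, HOG, calcium, sulfate, iron, sphingolipid, cell wall and mating lists, changed sign with total counts in at least 1 library type. Retention medians were −2.13 and −2.16 at a minimum of 50 intron reads. With intron reads divided by library size, 55 introns were lower and 8 higher in NaCl, the medians were −0.50 and −0.084, and changes turned around for *MCR1* (−0.75 and −1.84), *USV1* (−3.61 and −3.95), the CDS intron of *RPS22B* (2.83 and 1.13) and its 5′ UTR intron (1.71 and 3.003), since the CDS reads then leave the ratio. CDS introns alone gave 0 higher, 5′ UTR introns alone 15 lower and a ribodepleted median of −2.32, and leaving out RP introns gave 62 lower with medians of −1.10 and −0.61, from fewer introns. With a 2-fold margin, NaCl alone stood apart for 0 higher and 69 lower genes and LiCl alone for 358 and 448. Uncalled genes were not counted with that margin.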

Other observations

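Retrotransposon Gag-Pol frames moved differently in the library types. Of 45 tested, 30 had a change above 0 in polyA and of −1 or less in ribodepleted RNA, with medians of 0.47 (range −1.36 to 1.77) and −1.38 (−1.67 to 1.19). The copies share sequence, so single frames are not separate results.

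Several genes of mating type **a** cells, picked after their values were seen, were higher in NaCl, with the agglutinin subunit gene *AGA1* at 2.17 and 2.12, the pheromone protease gene *BAR1* at 1.79 and 1.91 and the pheromone gene *MFA1* at 1.45 and 1.52. Others were not called, among them the second pheromone gene *MFA2* (0.09 and 0.34) and the pheromone exporter gene *STE6* (0.74 and 0.77). *AGA1* stood at 362 CPM in NaCl, 80.4 in LiCl, 428 in glucose, 90.3 in myriocin and 40.2 in fenpropimorph, so that NaCl and glucose were the high cultures. *HMLALPHA2*, annotated at a silent mating-type locus, had 2486 polyA reads in NaCl and 8875 in LiCl (−1.46 and −1.29). Its neighbour *HMLALPHA1* had 42 and 147 polyA reads and was not called. Whether the *HMLALPHA2* reads came from that locus was not tested. *RME1*, a repressor of meiosis, was at 60.8 CPM in NaCl, 323 in LiCl and 69.1 to 87.8 in the other cultures (−2.41 and −2.61). The adenine synthesis gene *ADE2* was at 119.6 CPM in NaCl, 742 in LiCl and 281 to 396 in the others (−2.63 and −2.26). Mitochondrial genes took 0.263% of ribodepleted CDS reads in NaCl and 0.967% in LiCl.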
